A study of Mus musculus with 7 samples.

Results

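Erythroid transcripts were followed in sorted bone marrow stromal cells through 9 genes of 53801 in the count tables. They were taken by symbol after matching Ensembl gene IDs to the annotation, and comprise 2 alpha globin genes (Hba-a1, Hba-a2), 2 beta globin genes (Hbb-bs, Hbb-bt), the heme synthesis gene Alas2, the membrane gene Slc4a1, the carbonic anhydrase genes Car1 and Car2, and the nuclear factor gene Hemgn. All 9 were found and all 9 passed the filter on low counts. The animals were male C57BL/6 mice, 8 weeks old when dosing began. DPBS mice (n = 3) received 100 µl of that saline vehicle by daily intraperitoneal injection for 35 days, and FAPi mice (n = 4) received a fibroblast activation protein inhibitor at 500 µg/kg in the same volume and schedule. From each mouse, 7000 live limb bone cells were sorted as Pdgfra+ and CD45-, Ter119-, Tie2- and sequenced as 1 library. No label gives a genotype other than the strain, and the labels do not name the inhibitor.

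Red cell precursors fill themselves with hemoglobin, a tetramer of 2 alpha and 2 beta globin chains that each hold a heme. Heme synthesis in these cells begins with the erythroid enzyme encoded by Alas2, and the red cell membrane is anchored through band 3, the anion exchanger encoded by Slc4a1, which works with cytosolic carbonic anhydrases in carbon dioxide transport. In mouse marrow these precursors mature around macrophages next to the stroma, and the Ter119 antibody, which binds a red cell surface antigen, is used to remove the later stages. Whether erythroid RNA came from cells that passed the gate or from free RNA was not tested. In a bulk library, fewer erythroid cells and less erythroid RNA per cell cannot be told apart either.

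The libraries held 7492570 to 10569690 counts. Levels are given in CPM, the count scaled to library size, with TMM factors (a trimmed mean of gene ratios between libraries). The stromal label was checked against marker genes. Pdgfra, the marker sorted for, averaged 345 ± 25.2 CPM over DPBS libraries (SD, n = 3) and 402 ± 26.7 CPM over FAPi libraries (SD, n = 4), and all 12 stromal markers passed the low-count filter. Ptprc, which encodes CD45, ranged from 0.269 to 5.28 CPM, and Tek, which encodes Tie2, had 0 to 17 counts per library. The floor used for a count of 0, 3 counts, lay at 0.284 to 0.400 CPM of the library totals, without TMM factors. On the TMM scale 3 counts can therefore lie slightly outside this range, as for the lowest Ptprc value. The floor and the intervals below cover counting error only.

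The alpha and beta globin genes together took 0.704% of all counts in DPBS replicate 1 (95% Wilson interval 0.699 to 0.710), 1.52% in replicate 2 (1.516 to 1.532) and 0.162% in replicate 3 (0.159 to 0.164). In FAPi replicates 1 to 4 they took 0.270% (0.266 to 0.273), 0.202% (0.199 to 0.205), 0.286% (0.282 to 0.289) and 0.141% (0.138 to 0.144). The 2 DPBS libraries with most globin RNA lay above every FAPi library, and DPBS replicate 3 lay between FAPi replicates 4 and 2. Highest and lowest library differed 10.8-fold in all, 9.42-fold among DPBS mice and 2.03-fold among FAPi mice. Globin RNA made up 85.2 to 93.6% of the counts of the 9 genes, so the sum of all 9 largely repeats it.

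The 2 alpha globin genes lie on chromosome 11 (mm10), Hba-a1 (ENSMUSG00000069919.7) at 32283511 to 32284465 and Hba-a2 (ENSMUSG00000069917.7) at 32296489 to 32297298. Hba-a1 stood at 3048, 7613 and 789 CPM in DPBS replicates 1 to 3 and at 1355, 1289, 1537 and 729 CPM in FAPi replicates 1 to 4. Hba-a2 stood at 1096, 2875 and 375 CPM in the DPBS libraries and at 475, 517, 534 and 318 CPM in the FAPi libraries. For both genes DPBS replicate 2 was highest, FAPi replicate 4 lowest, and DPBS replicate 3 second lowest, so the groups overlapped. The log2 difference, FAPi minus DPBS, was -1.64 ± 0.57 (SE) in Hba-a1 and -1.65 ± 0.52 for Hba-a2, with edgeR adjusted p-values of 0.514 and 0.488. Without DPBS replicate 2 the differences were -0.64 and -0.67.

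The beta globin genes lie on chromosome 7, Hbb-bs (ENSMUSG00000052305.6) at 103826534 to 103828096 and Hbb-bt (ENSMUSG00000073940.3) at 103812524 to 103813996, on the minus strand. Hbb-bs stood at 1500.3, 3711 and 388 CPM in DPBS replicates 1 to 3 and at 652, 487, 717 and 339.9 CPM in FAPi replicates 1 to 4. Hbb-bt stood at 326, 652 and 59.1 CPM in the DPBS libraries and at 145, 112, 159.6 and 88.9 CPM in the FAPi libraries. Hbb-bs followed the order seen for alpha globin at both ends. Hbb-bt differed in that DPBS replicate 3, not FAPi replicate 4, was its lowest library. The log2 differences were -1.77 ± 0.57 in Hbb-bs and -1.45 ± 0.58 in Hbb-bt (edgeR adjusted p = 0.490 and 0.563). They were -0.78 and -0.61 without DPBS replicate 2.

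Near-identical copies limit how far the 4 globin genes can be separated. The coding sequences of Hba-a1 and Hba-a2 have 429 bases each and differ at 1, and those of Hbb-bs and Hbb-bt have 444 bases and differ at 1. Neither difference alters a residue, so each pair encodes 1 protein, of 142 residues for alpha and 147 for beta globin. Of all 150-base windows, the read length, 48.4% of the Hba-a1 transcript and 65.7% of the Hba-a2 transcript also occur in the other gene. For Hbb-bs and Hbb-bt these shares were 58.7% and 50.7%. No source used here says how reads with more than 1 placement were counted, so the 4 separate levels are uncertain. With each pair summed to 1 value the log2 differences were -1.64 for alpha and -1.71 for beta globin (edgeR adjusted p = 0.510 and 0.495).

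The proximal promoters of the 4 globin genes are shown because their transcripts kept nearly the same order over the libraries. Each line gives the 120 bases before the RefSeq start (GRCm38.p6), 5′ to 3′ on the gene's own strand, at chr11:32283552-32283671 (plus), chr11:32296372-32296491 (plus), chr7:103827929-103828048 (minus) and chr7:103813924-103814043 (minus). Capitals mark, on either strand, the string CACCC or its relative CACGCCC, the CCAAT box, the TATAA box or the string GATAA, and no marked strings overlap on these stretches, although CCAAT on opposite strands adjoins itself in Hbb-bt.
Hba-a1: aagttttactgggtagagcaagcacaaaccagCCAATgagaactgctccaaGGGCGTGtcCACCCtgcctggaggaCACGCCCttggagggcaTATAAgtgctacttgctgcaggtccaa
Hba-a2: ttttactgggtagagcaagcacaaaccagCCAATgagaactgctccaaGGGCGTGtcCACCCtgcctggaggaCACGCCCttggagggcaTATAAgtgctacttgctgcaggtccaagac
Hbb-bs: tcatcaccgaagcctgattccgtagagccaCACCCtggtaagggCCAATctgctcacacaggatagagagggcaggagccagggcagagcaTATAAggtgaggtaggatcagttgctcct
Hbb-bt: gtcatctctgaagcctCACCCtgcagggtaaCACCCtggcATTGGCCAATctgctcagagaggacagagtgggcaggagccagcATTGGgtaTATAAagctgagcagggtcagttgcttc
The RefSeq promoter windows of Hba-a1 and Hba-a2, 300 bases each, share an identical run of 297 bases. CACCC strings are the kind of element that the erythroid factor KLF1 binds, and GATA strings the kind that GATA1 binds. Within 250 bases upstream, all 4 globin genes held CCAAT, which occurs in 33.8% of the 32851 RefSeq promoters of that length, and TATAA, which occurs in 22.8%. All 4 also held CACCC (52% of promoters) and GATAA (22.6% of promoters), the latter outside the stretch printed here. CACGCCC was held by Hba-a1 and Hba-a2 and by 7.55% of all promoters. The gene coordinates above come from another annotation, GENCODE, whose starts differ from the RefSeq starts. The windows printed here therefore lie wholly or partly inside those gene spans. A match of letters is a description and does not show that a factor binds.

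**Figure D1:**
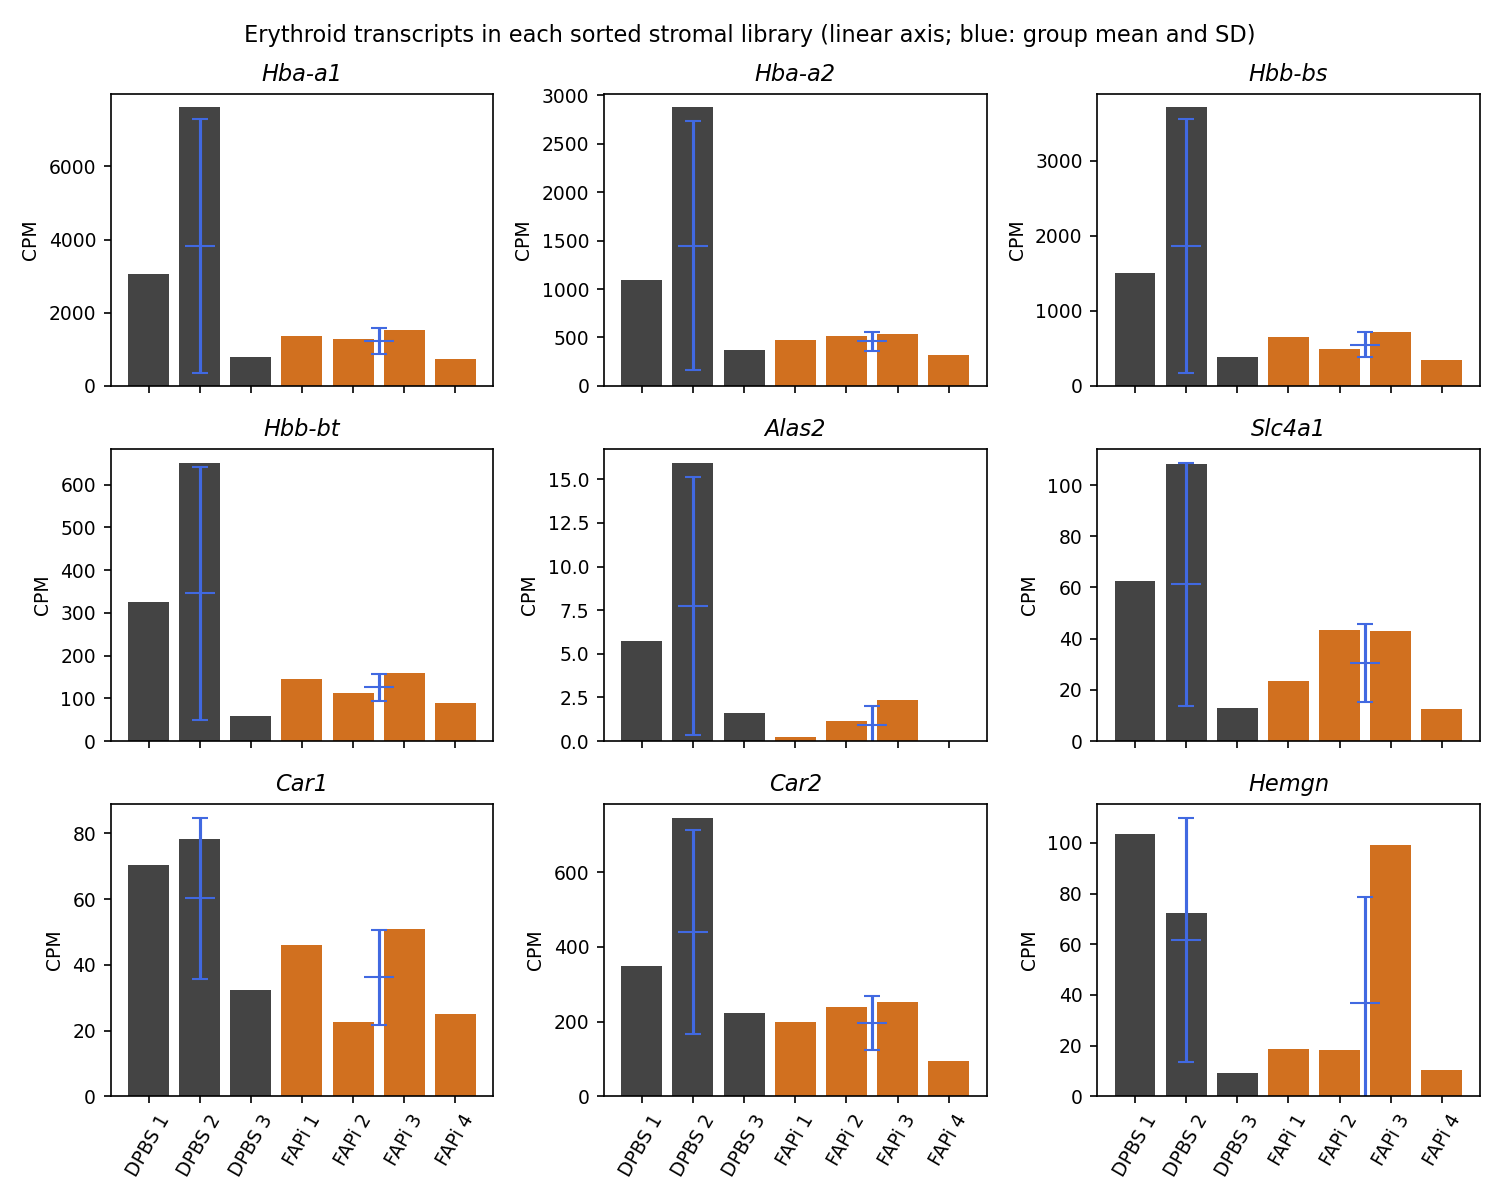
Level of each of the 9 genes in every library, in TMM-scaled CPM on linear axes from 0 (grey bars DPBS, orange bars FAPi, blue marks the group mean with SD, n = 3 and n = 4). DPBS replicate 2 is highest for 8 of the 9 genes, and Hemgn in FAPi replicate 3 (99.4 CPM) lies close to its highest library, DPBS replicate 1 (103 CPM).

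Alas2 (ENSMUSG00000025270.13, chromosome X, 150547375 to 150570638) encodes the first and rate-limiting enzyme of erythroid heme synthesis. It was the scarcest of the 9 transcripts, with 64, 151 and 17 counts in DPBS replicates 1 to 3 and 2, 9, 20 and 0 counts in FAPi replicates 1 to 4. On the CPM scale these were 5.73, 15.9 and 1.60 against 0.251, 1.16, 2.33 and 0. FAPi replicates 1 and 4 lay at or under the floor of 3 counts, and a count of 0 in replicate 4 allows a level of up to 0.400 CPM before TMM scaling. FAPi replicate 3 stood above DPBS replicate 3, so the groups overlapped. The log2 difference was -3.02 ± 1.29 (edgeR adjusted p = 0.582), and -1.95 without DPBS replicate 2. The gene overlaps Apex2 on the other strand, and 8.63% of its 150-base windows are shared with Apex2 transcripts. The promoter is shown as the heme synthesis counterpart of the globin promoters, again 120 bases before the RefSeq start, at chrX:150547297-150547416 (plus), with the same strings in capitals.
Alas2: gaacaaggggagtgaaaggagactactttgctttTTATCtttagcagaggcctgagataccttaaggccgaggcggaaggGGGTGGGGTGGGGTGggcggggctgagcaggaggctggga
The window held GATAA and CACCC, here read from the minus strand. Its last part lies inside the gene span given above. CCAAT was not among the letters of its 250 upstream bases.

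The rest of the heme pathway and iron import list was mostly lower by estimate, with no gene past the test. Of its 15 genes, Alas2 included, 14 had a lower estimate in FAPi mice and 0 were called, with a median log2 difference of -0.72. Over all 12930 genes tested 49.4% had a lower estimate, and the median was 0.01. Alas1, the housekeeping enzyme for the same first step, stood at 14.3, 18.7 and 23.2 CPM in the DPBS libraries and at 8.29, 10.7, 3.61 and 1.54 CPM in the FAPi libraries. Its DPBS values did not overlap those of the FAPi mice, and its highest library was DPBS replicate 3, the one with least globin RNA among the controls. Its log2 difference was -1.63 ± 0.69 (edgeR adjusted p = 0.582), and -1.64 without DPBS replicate 2; it overlaps an antisense gene. Glrx5, a mitochondrial iron-sulfur cluster factor, averaged 214 ± 120.2 CPM over DPBS libraries (SD, n = 3) and 109.9 ± 29.2 CPM over FAPi libraries (SD, n = 4). Cpox, which acts late in the pathway and overlaps Gpr15, stood at 101 ± 44.0 and 53.9 ± 25.2 CPM. The log2 differences of Glrx5 and Cpox were -0.96 and -0.91, and -0.40 and -0.53 without DPBS replicate 2. Without DPBS replicate 2, 11 of the 15 were lower by estimate (median -0.45).

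Slc4a1 (ENSMUSG00000006574.15, chromosome 11, 102348824 to 102366203) encodes band 3. Its level was 62.6, 108 and 13.0 CPM in DPBS replicates 1 to 3 and 23.3, 43.6, 42.9 and 12.6 CPM in FAPi replicates 1 to 4. DPBS replicate 3 and FAPi replicate 4 were the 2 lowest libraries, as for alpha globin. The log2 difference was -1.0 ± 0.64 (edgeR adjusted p = 0.727), and -0.30 without DPBS replicate 2. Of 16 tested genes among 18 red cell membrane genes, 14 had a lower estimate in FAPi mice, 0 were called and the median was -1.01; without DPBS replicate 2 the count was 12 and the median -0.49.

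Genes of the membrane list differed in which libraries were high. Dmtn, which encodes dematin of the membrane skeleton, averaged 5.29 ± 4.41 CPM over DPBS libraries (SD, n = 3) and 0.813 ± 0.431 CPM over FAPi libraries (SD, n = 4). Rhag, the Rh-associated glycoprotein gene, stood at 15.1, 26.8 and 16.4 CPM in the DPBS libraries and 5.90, 10.3, 13.2 and 3.07 CPM in the FAPi libraries, without overlap (log2 difference -1.26 ± 0.61, edgeR adjusted p = 0.639). Ermap, an erythroid membrane protein gene, was high in DPBS replicates 1 and 2 (241 and 372 CPM) and in FAPi replicate 2 (236 CPM), against 16.8 to 54.0 CPM in the other 4 libraries.

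Carbonic anhydrases interconvert carbon dioxide and bicarbonate, and Car1 and Car2 are the cytosolic forms abundant in red cells. Car1 (ENSMUSG00000027556.15, chromosome 3, 14766216 to 14808368) stood at 70.2, 78.2 and 32.3 CPM in DPBS replicates 1 to 3 and at 46.1, 22.6, 50.8 and 25.1 CPM in FAPi replicates 1 to 4. Car2 (ENSMUSG00000027562.12, chromosome 3, 14886273 to 14900770) stood at 348, 746 and 223 CPM in the DPBS libraries and at 200.3, 239.7, 253 and 94.9 CPM in the FAPi libraries. Both overlapped between the groups, and both were highest in DPBS replicate 2. The log2 differences were -0.74 ± 0.45 for Car1 and -1.16 ± 0.43 for Car2 (edgeR adjusted p = 0.713 and 0.529), and -0.50 and -0.54 without DPBS replicate 2. A processed pseudogene lies within Car1 on the same strand.

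The 2 carbonic anhydrases varied less between control libraries than globin. DPBS replicate 2 exceeded DPBS replicate 3 by 2.42-fold for Car1 and 3.34-fold for Car2, against 7.66- to 11.03-fold for the 4 globin genes. Car2 is also known as an osteoclast enzyme and was counted in that list too. Of the 12 osteoclast genes listed, Calcr, Oscar, Dcstamp and Ocstamp had 0 counts in every library. Others were present, among them Tcirg1 with 424 to 978, Clcn7 with 219 to 1723, Acp5 with 26 to 306 and Itgb3 with 13 to 122 counts. Ctsk, which stroma can also express, stood at 102 ± 2.97 CPM in DPBS and 72.4 ± 18.1 CPM in FAPi libraries. The part of osteoclast RNA in the Car2 level was not tested. Among 16 carbonic anhydrase genes, 5 were tested and 4 of these had a lower estimate (median -0.25), while 8 had 0 counts throughout. Car3, a form typical of muscle and fat, was highest in DPBS replicate 3 at 179.5 CPM, against 39.4 to 92.0 CPM elsewhere.

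Hemgn (ENSMUSG00000028332.13, chromosome 4, 46393989 to 46413506) encodes hemogen, a nuclear protein of hematopoietic cells and a target of GATA1. It stood at 103, 72.3 and 9.14 CPM in DPBS replicates 1 to 3 and at 18.8, 18.4, 99.4 and 10.3 CPM in FAPi replicates 1 to 4. The pattern departed from globin in FAPi replicate 3, which was close to DPBS replicate 1 for Hemgn, whereas the Hba-a1 level of that library was near those of FAPi replicates 1 and 2. The log2 difference was -0.75 ± 0.85 (edgeR adjusted p = 0.879), -1.95 without FAPi replicate 3 and -0.15 without DPBS replicate 1. The promoter window, at chr4:46404184-46404303 (minus), is shown because the gene is a known GATA1 target, with the same strings in capitals. It lies inside the gene span given above, since the RefSeq start used is downstream of the GENCODE start.
Hemgn: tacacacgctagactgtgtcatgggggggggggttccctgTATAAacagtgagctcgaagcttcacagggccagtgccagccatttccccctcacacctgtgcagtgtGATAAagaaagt
GATAA was present once in its 250 upstream bases, and CACCC and CCAAT were not among those letters. Over the 6 members with a RefSeq promoter entry, GATAA occurred in 6 and TATAA in 6, CACCC in 5 and CCAAT in 4.

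Of 14 erythroid regulator genes, Hemgn included, 13 had a lower estimate, 0 were called and the median was -0.76; without DPBS replicate 2 the count was 10 and the median -0.61. Gata1, the master factor of the lineage, stood at 11.8, 24.9 and 5.65 CPM in the DPBS libraries and at 9.16, 3.88, 3.03 and 2.09 CPM in the FAPi libraries. Bcl11a, which silences embryonic globin genes, stood at 13.9, 40.5 and 2.07 CPM against 3.39, 4.91, 3.49 and 2.23 CPM, with a log2 difference of -2.42 ± 0.86 (edgeR adjusted p = 0.514) and -1.18 without DPBS replicate 2; it overlaps antisense genes and is also expressed in B cells. Nfe2 stood at 14.6 ± 8.66 CPM (SD, n = 3) and 3.63 ± 2.87 CPM (SD, n = 4). Add1, the ubiquitous adducin gene, was the 1 exception, at 215 ± 37.0 and 272 ± 93.7 CPM. Of 10 tested red cell cytoplasm genes, 9 had a lower estimate (median -0.77), and 8 without DPBS replicate 2 (median -0.29). Prdx2, an abundant red cell peroxidase whose gene overlaps Rnaseh2a and Junb, averaged 445 ± 274 CPM over DPBS libraries and 276 ± 86.9 CPM over FAPi libraries, with a log2 difference of -0.69 that was -0.067 without DPBS replicate 2. The embryonic globin genes Hba-x, Hbb-y and Hbb-bh2 had 0 counts in every library, and Hbb-bh1 had 0 to 2. Hbq1b, a theta globin gene of the alpha cluster, had 35, 85 and 1 counts in the DPBS libraries and 3, 32, 8 and 0 in the FAPi libraries.

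Per kilobase of the longest coding transcript, mean DPBS levels were 5460.4 CPM in Hba-a1, then 2972 in Hbb-bs, 2615 in Hba-a2, 492 in Hbb-bt and 246 in Car2. Car1 followed at 50.5, Hemgn at 26.1, Slc4a1 at 13.5 and Alas2 at 3.81 CPM per kilobase. The FAPi means had the same order, with 1756 CPM per kilobase in Hba-a1, 874 in Hbb-bs, 832 in Hba-a2 and 0.459 in Alas2. The ranges over libraries of neighbours such as Hbb-bs and Hba-a2, or Hemgn and Slc4a1, overlapped on this scale. Whether the order of such neighbours holds within single libraries was not tested.

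Over all genes the comparison of 4 FAPi with 3 DPBS libraries called no gene in edgeR's quasi-likelihood test at an adjusted p under 0.05, 0% of 12930 tested, and 1053 genes (8.14%) had an unadjusted p under 0.05. None of the 9 members was called, by edgeR or by DESeq2, whose lowest adjusted p among them was 0.120 and which called 84 genes higher (0.685%) and 51 lower (0.416%) of the 12267 genes it gave an adjusted p. All 9 were lower by estimate in FAPi mice, beside 49.4% of all genes (members' median -1.45). Without DPBS replicate 2 all 9 were still lower by estimate, beside 47.6% of all genes, with the median at -0.61. An unadjusted p under 0.05 was reached by 6 members, all lower, beside 3.69% of all genes lower and 4.45% higher, and by 0 without that library, beside 3.18%. The groups did not overlap for 0 of the 9, beside 3.95% of all genes that were lower without overlap. The 9 genes are not independent of each other, since all can come from the same cells.

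**Figure D2:**
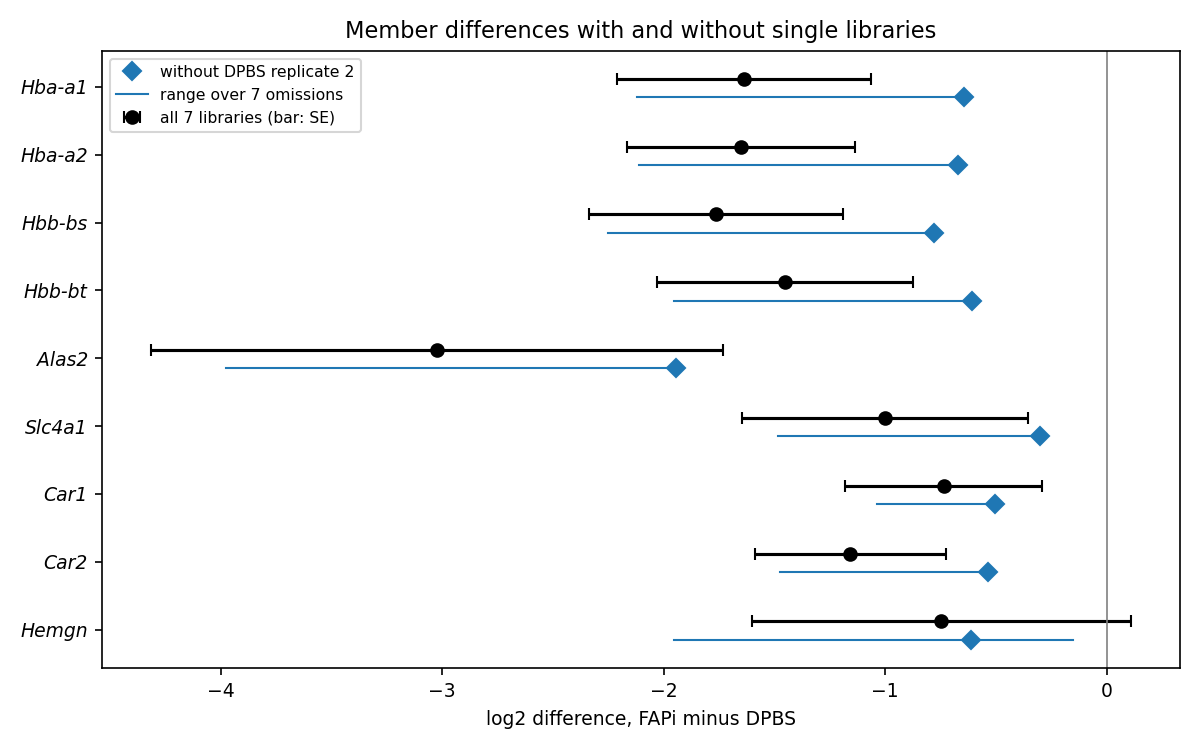
Log2 difference, FAPi minus DPBS, for each gene from edgeR (black points with SE), with the value without DPBS replicate 2 (blue diamonds) and the range over the omission of each of the 7 libraries in turn (blue lines). All points lie below 0, and the diamonds lie nearest to 0 for 8 of the 9 genes.

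The spread between libraries, given as a description, differed among the members. The SD of log2 CPM over the 3 DPBS libraries was 1.65 for Hba-a1 and 1.47 to 1.78 for the 4 globin genes, and over the 4 FAPi libraries it was 0.34 to 0.48. The other members did not all share this contrast, with DPBS and FAPi SDs of 1.58 and 1.57 for Alas2, 0.69 and 0.59 for Car1, 0.88 and 0.65 for Car2, 1.87 and 1.40 for Hemgn, and 1.57 and 0.84 for Slc4a1. Among 1576 tested genes with at least 100 CPM on average, the median SD was 0.36 in each group, and 1.08% had a DPBS SD as large as that of Hba-a1. DPBS replicate 2 was the highest library for 8 of the 9 members, beside 17.5% of tested genes. FAPi replicate 4, the library with the fewest counts, was lowest for 6 of the 9. The share of all tested genes lowest in that library was not computed.

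Ratios within a library are free of scaling, and 9 of them were tested after their values were seen (8 are given), by two-sided exact permutation of the group labels (35 splits, smallest possible p 0.0286). The alpha to beta globin count ratio was nearly constant, at 2.27, 2.40 and 2.60 in DPBS replicates 1 to 3 and 2.30, 3.01, 2.36 and 2.44 in FAPi replicates 1 to 4 (exact p = 0.800), while globin itself varied 10.8-fold. The ratio of Hba-a1 to Hba-a2 lay between 2.10 and 2.88 (exact p = 0.629). Hbb-bs to Hbb-bt was 4.60, 5.70 and 6.57 in the DPBS libraries and 4.5, 4.35, 4.49 and 3.82 in the FAPi libraries. These groups did not overlap (difference -1.33, exact p = 0.0286, and 0.257 after Benjamini-Hochberg adjustment over the 9 ratios), though DPBS replicate 1 and FAPi replicate 1 were close, and the difference was -0.85 without DPBS replicate 3.

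Alas2 per 1000 globin counts was 0.960, 1.07 and 0.994 in DPBS replicates 1 to 3, whose globin shares differed 9.42-fold, and 0.0956, 0.484, 0.790 and 0 in FAPi replicates 1 to 4. The FAPi values all lay below the DPBS values (exact permutation p = 0.0571, and 0.257 after adjustment), and they rest on 0 to 20 Alas2 counts per library. The difference of -0.67 ranged from -0.82 to -0.55 over the omission of single libraries. DPBS replicate 3, with a globin share inside the FAPi range, held 17 Alas2 counts, against 20 in FAPi replicate 3, whose globin share was higher (0.286%).

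The other members varied more against globin. Slc4a1 per 1000 globin counts lay between 7.28 and 18.1, highest in FAPi replicate 2. Car1 varied from 5.26 to 20.1 and Car2 from 50.2 to 139, both lowest in DPBS replicate 2 and highest in DPBS replicate 3, the libraries with the most and the least globin RNA among the controls. Hemgn varied 6.92-fold, from 4.87 in DPBS replicate 2 to 33.7 in FAPi replicate 3. None of these 4 ratios differed between the groups beyond the spread between libraries (exact permutation p from 0.286 to 1, and 0.643 to 1 after adjustment).

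**Figure D3:**
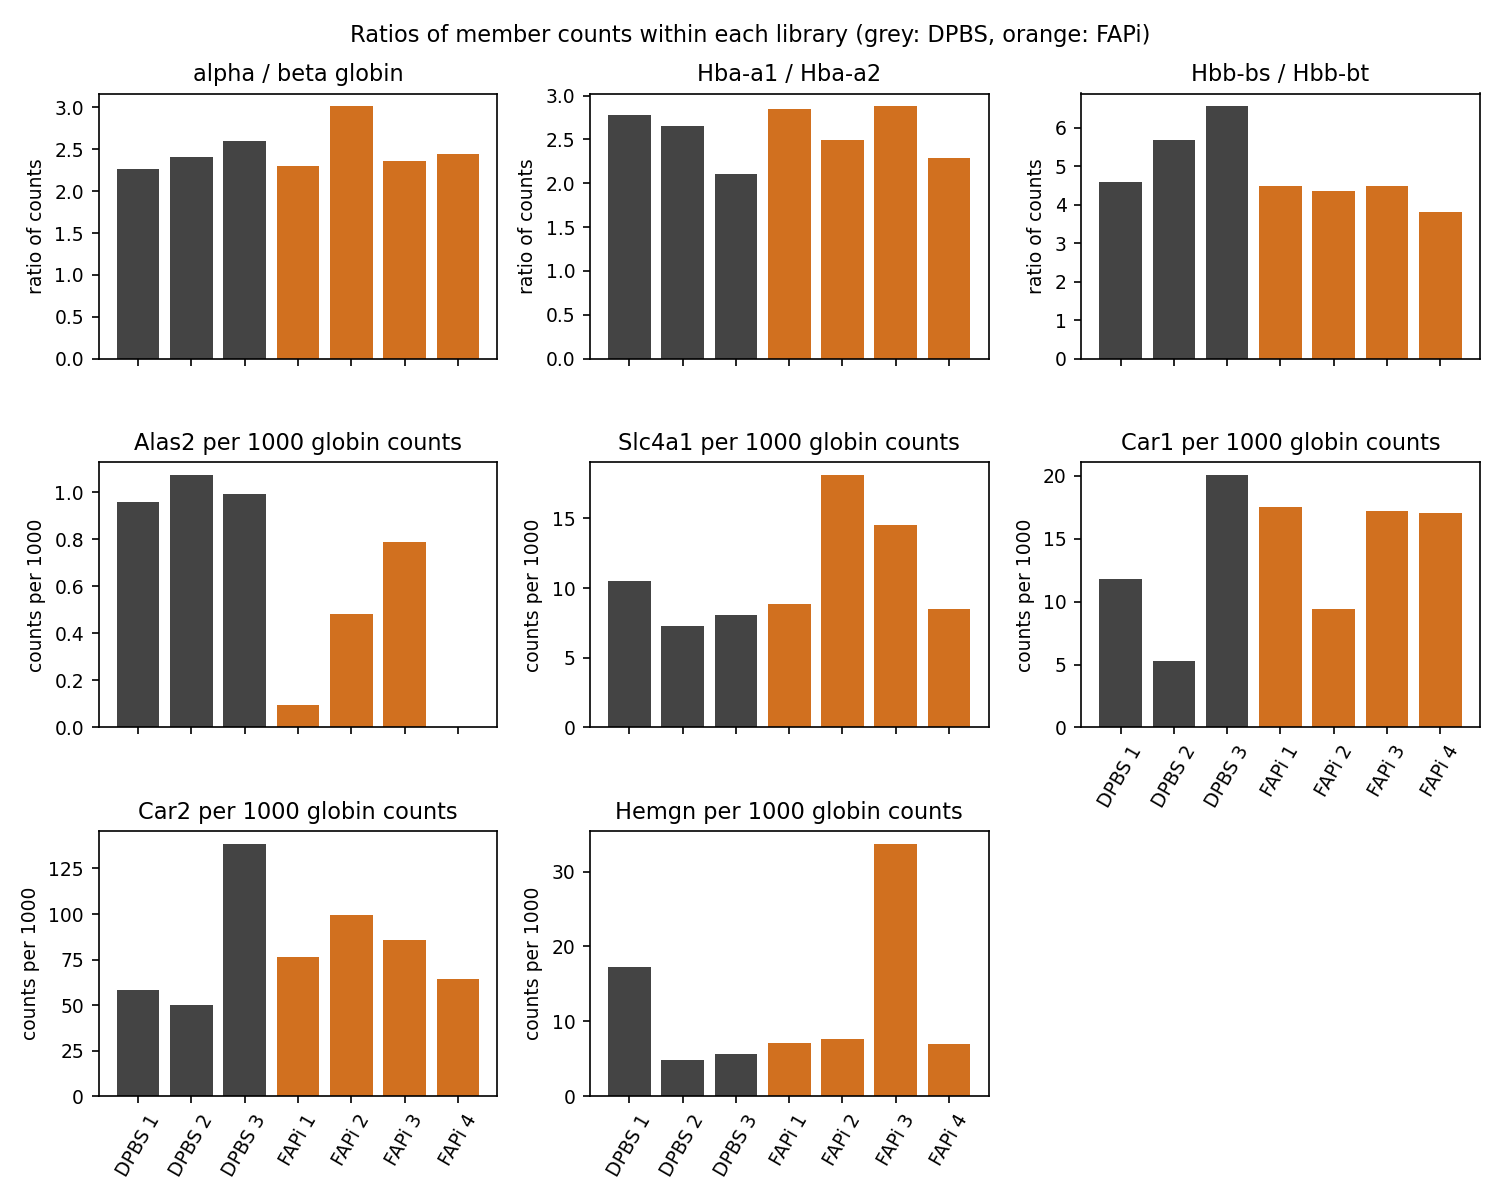
Ratios of deposited counts within each library, on linear axes from 0 (grey bars DPBS, orange bars FAPi). The alpha to beta ratio stays between 2.27 and 3.01, while Alas2 per 1000 globin counts is 0.960 to 1.07 in DPBS libraries and 0 to 0.790 in FAPi libraries, and Hemgn reaches 33.7 in FAPi replicate 3.

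Genes with a profile most like summed globin were ranked by the root mean square distance of centred log2 CPM over the 7 libraries, among 9605 tested genes with at least 5 CPM. The nearest were Ccnb2, which encodes cyclin B2 (distance 0.209), Tacc3 (0.289), Chil3 (0.312), Cdkn3 (0.336), Ctse, which encodes cathepsin E (0.358), Ddx3y (0.373), Cdca2 (0.381) and Birc5, which encodes survivin (0.381). Ccnb2 stood at 56.3, 199 and 15.1 CPM in DPBS replicates 1 to 3 and at 22.5, 24.8, 35.3 and 13.8 CPM in FAPi replicates 1 to 4. Rhd, the Rh blood group gene, ranked 9 and Slc4a1 ranked 20, followed by Car2 at 23 and Car1 at 89. Hemgn ranked 974, and Alas2, under 5 CPM on average, was not ranked. The nearest 100 of all 9605 ranked genes held 4 of the 11 ranked red cell membrane genes and 4 of the 11 ranked erythroid regulators. They also held 4 of the 13 ranked heme synthesis and iron import genes, 4 of the 10 ranked red cell cytoplasm genes and 2 of the 3 ranked carbonic anhydrase genes. Fech is counted in 2 of these lists. Of the 10 ranked neutrophil genes 4 were among the nearest 100, and of the 12 stromal markers 0. Tacc3 and Ddx3y overlap other genes.

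Markers of other blood cells were summed in each library beside globin. The 15 neutrophil genes summed to 1858, 2887 and 677 CPM in DPBS replicates 1 to 3 and to 627, 604, 651 and 201 CPM in FAPi replicates 1 to 4, so DPBS replicates 1 and 2 were high and FAPi replicate 4 low, as for globin. S100a8, their most abundant gene, stood at 1241, 1914 and 457 CPM against 419.7, 315, 419.7 and 123 CPM. Of 13 tested neutrophil genes 12 had a lower estimate (median -1.58), and 11 without DPBS replicate 2 (median -1.0). The groups did not overlap for 5 of the 13, all lower, beside 3.95% of all genes. Without DPBS replicate 2, 4 were lower at an unadjusted edgeR p under 0.05, beside 3.18% of all genes. edgeR called 0 of the 13. DESeq2 called 3 lower, beside 0.416% of all genes with an adjusted p. These were S100a8 (DESeq2 adjusted p = 0.0383), Lcn2 (adjusted p = 0.00226) and Mmp8 (adjusted p = 0.0420). The 16 monocyte and macrophage genes ranged from 174 to 413 CPM in DPBS and 109.7 to 169.9 CPM in FAPi libraries. Most of this was Lyz2, which overlapped between the groups, at 135 to 353 CPM in DPBS and 93.1 to 141 CPM in FAPi libraries. Which cells the Lyz2 RNA came from was not tested. Of the 16 genes 2 had 0 counts throughout, and others were detected in some libraries, such as Ccr2 with 3 to 262, C1qa with 2 to 99 and Cd68 with 0 to 59 counts. Of 6 tested genes 3 had a lower estimate (median -0.30), and 5 without DPBS replicate 2. The part of these cells in the globin differences was not tested.

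Platelet, endothelial and stromal sums were not highest in DPBS replicate 2, whereas several B-lineage genes were. The 12 B cell genes summed to 623 to 1109 CPM in DPBS and 757 to 1216 CPM in FAPi libraries, most of it Ebf1, which stroma also expresses. Cd79a, part of the B cell receptor, stood at 3.05, 82.2 and 1.88 CPM in DPBS replicates 1 to 3 and at 32.1, 4.52, 3.73 and 2.23 CPM in FAPi replicates 1 to 4. Vpreb3 was likewise highest in DPBS replicate 2 (137 CPM) and FAPi replicate 1 (134 CPM), against 9.71 to 20.4 CPM elsewhere. Of 8 tested, 5 had a lower estimate with all libraries (median -0.31) and 0 without DPBS replicate 2. Of the 10 T and NK cell genes 6 had 0 counts in every library, and the 1 tested, Il7r, stood at 2.97 ± 1.69 CPM in DPBS and 5.27 ± 6.96 CPM in FAPi libraries. The 12 megakaryocyte and platelet genes were highest in DPBS replicate 3, at 581 CPM against 103 to 226 CPM elsewhere, with 4 of 7 tested lower (median -0.82). Pf4 in this list stood at 249.9 CPM in that library. The 10 endothelial genes summed to 48.0 to 123 CPM in DPBS and 36.0 to 379 CPM in FAPi libraries (2 of 8 lower, median 0.32). Without DPBS replicate 2, 4 of 8 were lower and the median turned to -0.045. Kdr in FAPi replicate 1 (340.3 CPM) made up most of the highest endothelial sum. In the osteoclast list 6 of 7 tested genes were lower (median -0.43). The 12 stromal genes summed to 91236 to 106846 and 102312 to 110194 CPM, 6 of 12 lower (median 0.03).

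**Figure D4:**
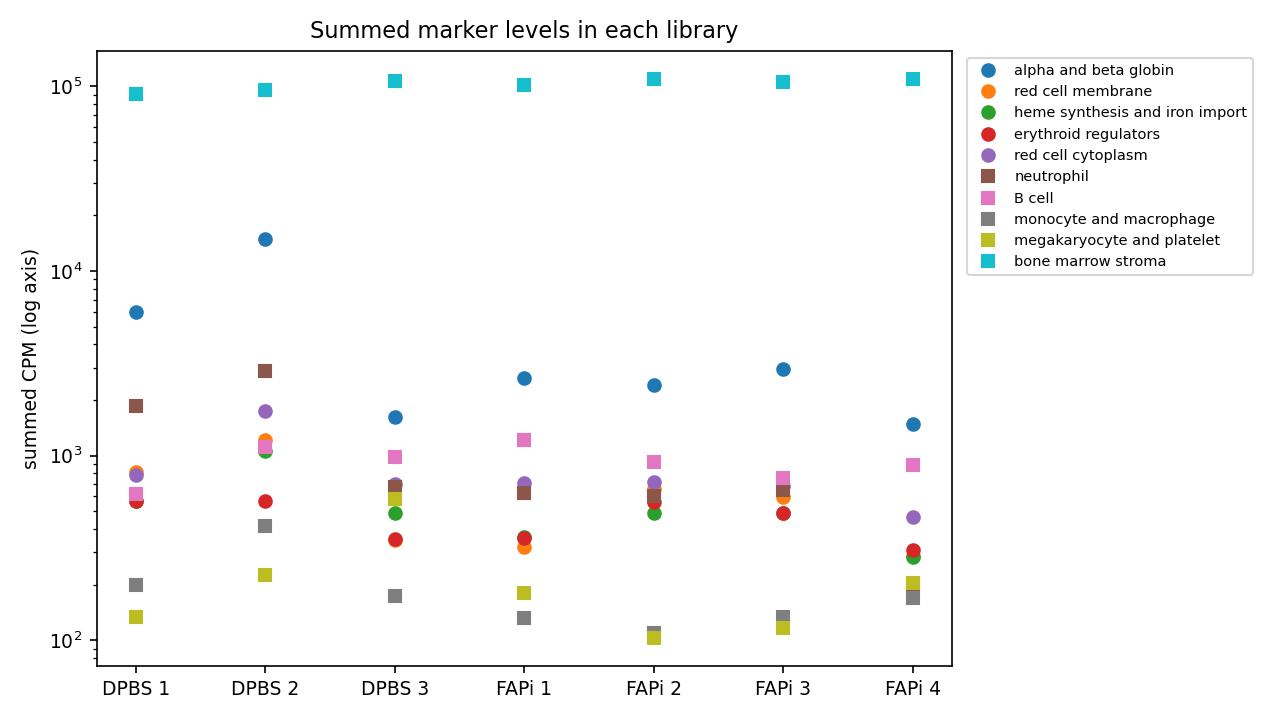
Summed TMM-scaled CPM of 5 erythroid gene lists (circles) and 5 lists of other cell types (squares) in each library, on a log axis. Globin and neutrophil sums are both highest in DPBS replicate 2 (14851 and 2887 CPM), platelet genes are highest in DPBS replicate 3 (581 CPM), and stromal genes stay between 91236 and 110194 CPM.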

How the data were processed

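Count tables were deposited by the authors, 1 per library, as whole-number counts for 53801 Ensembl gene IDs, with CPM tables in which the authors divided each count by the library total (deposited values matched to within 4.55e-05 CPM; 6 of 7 tables repeat their end, so later lines of a gene were dropped). The submitters' processing notes name STAR, HTSeq and mm10. Those notes state no versions, annotation or strand setting. Any effect of duplicate removal on the globin counts was not tested. Symbols and coordinates come from GENCODE M21 on the same build (53620 IDs matched), promoters from RefSeq (6 of 9 members matched). The test on counts was edgeR 4.0.16 in R 4.3.3, with filterByExpr (minimum count 10), TMM, robust glmQLFit and glmQLFTest, Benjamini-Hochberg adjustment over 12930 genes, threshold 0.05. SE is the absolute log2 difference over the square root of F. DESeq2 1.42.0 and limma 3.58.1 (on the deposited CPM with pseudocounts 1 and 0.1, and voom) were alternatives.

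The members, gene lists and alternatives were chosen with earlier results of these data known. Genes were named as members, by smallest p (up to 3) and highest level (2) in each list, as sort markers, or as the 8 nearest to summed globin; some of these, and values that rest on them, are not reported here. Embryonic globin genes, Rhd, and several macrophage and osteoclast genes fall outside that rule and were named after their values were seen. Ahsp, listed, had no row. In simulated data on 12930 genes for this comparison edgeR recovered 0% of genes changed 2-fold, 14% at 4-fold, 50% at 8-fold and 76% at 16-fold. No label says whether mice shared a cage or day. The edgeR p-values set the group difference against the spread between libraries within a group. No p-value here can separate treatment from a cage or day that went with it.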

Additional observations from a re-analysis of the deposited data

Results flagged for a closer look

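Among the 4 FAPi libraries, 35 levels, list sums and ratios were searched for 1 library standing apart, measured as its gap to the next library over the whole range. In 7 of them a library stood apart, of which 6 are given. Chance alone gives about 1 in 20, here 1.75, for independent values, and these share genes. The DPBS group of 3 is too small for the search.

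In FAPi replicate 3 Hemgn reached 99.4 CPM, and its level was 10.3 to 18.8 CPM in the others (gap 0.905 of the range), and its ratio to 1000 globin counts was 33.7 there, above 7.0 to 7.63 (gap 0.976). Car1 per 1000 globin counts was lowest in FAPi replicate 2, at 9.41 against 17.0 to 17.5 (gap 0.937). The summed neutrophil genes were lowest in FAPi replicate 4, at 201 CPM against 604 to 651 CPM (gap 0.896), as were the red cell cytoplasm genes, at 467 CPM against 682 to 716 CPM (gap 0.864). The T and NK cell genes were highest in FAPi replicate 1, at 16.3 CPM against 1.68 to 2.68 CPM (gap 0.931); Il7r alone was 15.7 CPM of this, and 6 of the 10 genes had 0 counts in every library. The B-lineage gene Ms4a1 was also highest there, at 51.0 CPM against 0.838 to 2.07 CPM.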

How the results depend on the processing

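The estimates of the 9 members kept their negative sign and stayed above the p threshold in all 153 recomputed values (globin pairs summed included), and no alternative called a member. Without DPBS replicate 2 they lay between -1.95 and -0.30, and without DPBS replicate 3 those of globin lay between -2.25 and -1.96. The log2 ratio of the mean globin share, -1.83 with all libraries, ranged from -2.31 to -0.95 over omissions of single libraries. Across all genes, the edgeR counts of 0 higher and 0 lower became 84 and 51 with DESeq2, 5 and 1 with no low-count filter, 1 higher with voom weights, and 4 and 2 with limma, whether 1 or 0.1 was added to the deposited CPM. When single libraries were left out, 0 to 2 genes were called higher and 0 to 1 lower, and these calls appeared without DPBS replicate 3. The cause was not tested. Same-numbered samples did not deviate together (correlations -0.01, -0.02 and -0.05), and the replicate block gave 0 higher, 0 lower and 0 member calls, with FAPi replicate 4 alone in its block. List counts without DPBS replicate 2, added after seeing the data, changed by over 1.5 times for B cell (5 to 0), monocyte (3 to 5) and endothelial genes (2 to 4).

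Depth limits Alas2, which had 0 to 20 counts in FAPi libraries, and near-identical copies limit each globin gene.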
